A study of Mus musculus with 6 samples.

Results

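The cytosolic ribosomal protein genes encode the proteins of the large and small subunits of the ribosome that translates nuclear-encoded mRNA. They were taken here as all features whose symbol starts with Rpl or Rps followed by a digit, together with Rpsa, Rplp0, Rplp1 and Rplp2. Features named as pseudogenes (-ps) and the Rps6k kinases were left out, and at least 100 UMIs (unique molecular identifiers, each marking 1 captured RNA molecule) over the 6 libraries were required. This gave 84 members of 33457 measured features, of which 49 carry large-subunit names and 35 small-subunit names. Under the minimum were Rpl3l with 71 UMIs, Rpl39l with 14 and Rpl10l with 5 in all barcodes, whereas the lowest members, Rps19bp1 and Rps4l, had 4126 and 4339. Among the 84 are 7 that are paralogs or other proteins and not classical subunits: Rpl22l1, Rpl36al, Rpl7l1, Rps4l, Rps27l, Rps27rt and Rps19bp1. The other 77 (46 large-subunit and 31 small-subunit genes) are called core members below.

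The RNA was that of single nuclei from the brains of B6 mice aged 9 months, titled as hippocampus, captured on the 10x Genomics droplet platform. All groups carry a floxed human APOE gene, which encodes apolipoprotein E, the main lipid carrier of the brain. FE3 (genotype label "APOE3 fl/fl") and FE4 ("APOE4 fl/fl") had no treatment, and their labels name neither tau transgene nor Cre. TAFE3_oil, TAFE3_tam, TAFE4_oil and TAFE4_tam carry P301S, a mutant human tau transgene that gives tau pathology, with APOE3 or APOE4 fl/fl and the label Aldh1la1CreERT, a tamoxifen-dependent Cre, and received oil or tamoxifen. The promoter is named only in that label, and how many animals went into each library is unknown.

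There was 1 library per group, so no difference below has a replicate check and no p-value is given. Intervals are exact 95% binomial intervals that cover counting error only, and the spread between animals is unknown. Nuclei used numbered 10079 (FE3) and 15707 (FE4) without tau, 10682 (TAFE3_oil) and 10497 (TAFE3_tam) with tau and APOE3, and 11846 (TAFE4_oil) and 12995 (TAFE4_tam) with tau and APOE4, with median depths from 2176 to 2592 UMIs. Cells were grouped without ribosomal protein or mitochondrial genes and named from marker genes (oligodendrocyte-like and so on, written short here), and 9 classes had at least 50 nuclei in every library. Between 14.6% and 17.5% of nuclei per library stayed in unnamed clusters and in no class. In astrocytes APOE was 15901 CPM (the share of UMIs scaled so that all genes of the class sum to 1e6) in TAFE3_oil and 5028 CPM in TAFE3_tam, and 18416 CPM in TAFE4_oil and 5562 CPM in TAFE4_tam, so it was lower in both libraries labelled tamoxifen. The libraries differed in mitochondrially encoded UMIs, which made up 2.25% of the UMIs of used nuclei (FE3) and 0.745% (FE4) without tau, 1.57% (TAFE3_oil) and 1.98% (TAFE3_tam) with tau and APOE3, and 1.92% (TAFE4_oil) and 0.797% (TAFE4_tam) with tau and APOE4. Because this share moved with several of the results below, it is given beside them.

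Ribosomal protein mRNAs are short, abundant and spliced from compact genes, and most of their molecules are in the cytoplasm, engaged with or awaiting ribosomes. Many start with a run of pyrimidines (the terminal oligopyrimidine or TOP motif) through which growth signalling by mTOR sets their translation. A share of UMIs cannot tell fewer molecules of the members apart from more molecules of other genes.

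Ribosomal protein genes took 1.30% of UMIs (FE3) and 0.794% (FE4) without tau, 1.27% (TAFE3_oil) and 1.46% (TAFE3_tam) with tau and APOE3, and 1.51% (TAFE4_oil) and 1.19% (TAFE4_tam) with tau and APOE4. FE4 was therefore the lowest library and TAFE4_oil the highest. The median nucleus held 30 ribosomal protein UMIs in FE3 and 18 in FE4, at total depths of 2408 and 2331 UMIs. Over all used nuclei FE4 was the lowest library for 83 of the 84 members, and the exception was Rps27. TAFE4_oil was the highest library for 64 members and TAFE3_tam for 19.

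Glial classes carried a larger share than neurons. The mean over the 6 libraries was 1.86% in microglia and 1.86% in oligodendrocytes, the myelin-forming cells. It was 1.69% in astrocytes and 1.58% in oligodendrocyte precursors. Among neurons it was 1.32% in dentate granule neurons, 1.11% in subicular or cortical neurons, 1.10% in CA1 neurons, 1.07% in inhibitory neurons and 0.857% in CA2 or CA3 neurons. Granule neurons ranged from 0.803% to 1.62% over libraries and oligodendrocyte precursors from 0.974% to 1.98%, but within each of the 6 libraries the precursors were the higher. CA1, subicular or cortical and inhibitory neurons changed places between libraries, as did the glial classes. CA2 or CA3 neurons were the lowest of the 9 classes in all 6 libraries. These neurons also held the most UMIs per nucleus, with medians from 3970.5 to 5024 over libraries, against 747 to 971.5 in microglia and 852 to 1063.5 in oligodendrocytes. Endothelial cells, which had 39 nuclei in FE3 and are outside the means, were higher than all 9 classes in every library, from 3.30% in FE4 to 5.29% in TAFE4_tam. Their cluster also carried markers of other cells. The mean log2 fold over other nuclei was 6.3 for endothelial, 4.9 for red blood cell and 3.3 for mural markers. Its median doublet score was 0.205. The part of such mixing in the share was not tested.

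**Figure D1:**
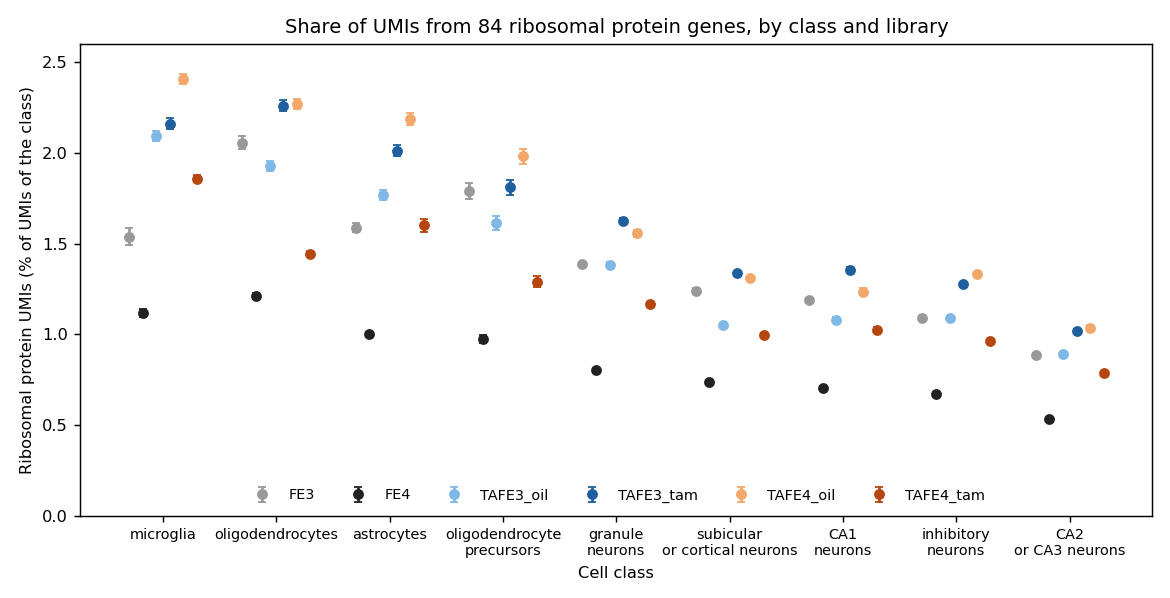
Share of UMIs from the 84 ribosomal protein genes (y axis, percent of the UMIs of a class) in 9 cell classes (x axis), with 1 point per library and exact 95% intervals for counting error. FE4 is the lowest point in every class, from 0.534% in CA2 or CA3 neurons to 1.21% in oligodendrocytes.

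The 2 subunits kept their proportion. Large-subunit core genes made up 56.6% of core UMIs (FE3) and 55.8% (FE4) without tau, 56.8% (TAFE3_oil) and 57.1% (TAFE3_tam) with tau and APOE3, and 57.0% (TAFE4_oil) and 56.8% (TAFE4_tam) with tau and APOE4. FE4 was thus lowest here too, by less than 1.5 percentage points. In the 9 classes the large-subunit proportion ran from 55.1% (oligodendrocytes of FE4) to 57.9% (CA2 or CA3 neurons of TAFE4_oil).

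The median level of the members was 142 CPM (mean of the 6 libraries, all used nuclei). Each UMI marks 1 captured molecule whatever its length, so these levels compare captured and counted molecules between genes. Losses in capture and read assignment may differ between genes, which was not tested. The 5 highest members held 13.3% of the summed level and the 10 highest 24.4%. Among them, Rplp1, an acidic stalk protein that recruits elongation factors, had 350 CPM, with 412 (FE3) and 180 (FE4) without tau, 348 (TAFE3_oil) and 420 (TAFE3_tam) with tau and APOE3, and 439 (TAFE4_oil) and 300 (TAFE4_tam) with tau and APOE4. Also among the 5 highest were Rps21 with 330 CPM, Rps2 with 320 CPM and Rpl13 with 312 CPM. The other stalk proteins were lower: Rplp2 had 118 CPM and Rplp0, the stalk base, 86.6 CPM.

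The 5 lowest members were all from the group of 7 that are not classical subunits. Rps4l had 13.8 CPM, Rps19bp1 15.4 CPM, Rps27l 19.1 CPM, Rpl7l1 22.1 CPM and Rps27rt 42.9 CPM. Rps4l is annotated as a transcribed processed pseudogene in GENCODE and Rps27rt is a single-exon copy of Rps27, so reads may have been split between them and Rps4x or Rps27, and their values are uncertain. Of the paralog pairs, Rpl22 and Rpl22l1 stood at 80.2 and 94.4 CPM, and Rpl36a and Rpl36al at 70.4 and 68.0 CPM. The paralogs Rps27l and Rps27 stood at 19.1 and 194 CPM. Rpl22l1 and Rpl36al therefore reached the counted level of their partners in these nuclei, and Rps27l stayed far under that of Rps27. Rps6, the target of S6 kinase, had 77.4 CPM, Rpsa, which is also a laminin receptor, had 212 CPM, and Rps27a, made as a fusion with ubiquitin, had 207 CPM.

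Other members with named roles lay between these. Rpl3, a core protein of the peptidyl transferase region, had 195 CPM, with 199 in FE3 and 111 in FE4. Rpl10, which joins the large subunit last, had 111 CPM, and Rpl7 91.3 CPM. Rps19, mutated in Diamond-Blackfan anaemia, had 149 CPM, with 162 in FE3 and 92.0 in FE4. Rps4x, the X-linked small-subunit gene, had 100.2 CPM, with 49.9 in FE4. Of the genes of the smallest proteins, Rpl41 had 308 CPM, Rps29 303 CPM and Rpl38 213 CPM, all above the median member, and Rpl39 had 140 CPM, just under it. Each of these members was lowest in FE4.

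Among the 9 classes, 43 members had their highest level in oligodendrocytes, 32 in microglia, 5 in astrocytes, 2 in oligodendrocyte precursors, 1 in CA1 neurons and 1 in granule neurons. Endothelial cells and the other smaller classes were left out of this count. Rpl13 was the most uneven. It had 661 CPM in oligodendrocyte precursors, from 461 CPM in FE4 to 795 CPM in FE3, against a median over classes of 327 CPM. The ratio was 2.02, and in all 6 libraries the precursors exceeded the other 8 classes. Rps26 had 170 CPM in oligodendrocytes, 1.91 times its median class. Rps29 had 555 CPM in oligodendrocytes (1.82 times) and Rpl39 had 240 CPM (1.79 times).

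The comparison of FE4 with FE3 asks how the APOE alleles differ without tau transgene. The ribosomal protein share was lower in FE4 in 9 of 9 classes. The mean log2 ratio over classes was -0.72 (95% counting interval -0.73 to -0.71), which is 1.65-fold lower. It ran from -0.88 in oligodendrocyte precursors to -0.46 in microglia, where FE3 had 150 nuclei. In granule neurons 66 of 84 members were at least 1.5-fold lower and 0 higher, beside 8.17% of the 11534 genes with at least 50 UMIs that were lower and 1.54% higher. The median member was at -0.80 and the median gene at -0.15. By the same rule 62 of 83 tested members were lower in subicular or cortical neurons (6.82% of genes), 66 of 84 in CA1 neurons (8.8%), 61 of 84 in CA2 or CA3 neurons (7.12%) and 58 of 84 in inhibitory neurons (6.59%). Among glia 64 of 82 were lower in oligodendrocytes (11.2%), 65 of 78 in oligodendrocyte precursors (13.7%) and 51 of 84 in astrocytes (9.33%). Microglia had 23 of 78 lower (12.6%) and 1 higher (7.07%). The share of members was above that of all genes in each class, and least so in microglia. The mitochondrial share was lower too, with a mean log2 ratio of -1.65 and a range from -2.12 to -1.05. Its part in the result was not tested beyond the grouping by mitochondrial share given further on.

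Members did not move equally. Averaged over classes, the lowest were Rplp1 at -1.21, Rps24 at -1.18 and Rpsa at -1.15. In granule neurons Rplp1 went from 461 CPM in FE3 to 198 CPM in FE4, Rps24 from 241 to 91.4 CPM, and Rpsa from 244 to 110 CPM. At the other end were Rpl7l1 at 0.01, Rps27 at -0.14 and Rps27rt at -0.23. Rps27 went from 213 to 175 CPM in granule neurons, a log2 ratio of -0.28 with an interval of -0.40 to -0.17. It was 201 CPM in both libraries in subicular or cortical neurons, and 165 and 167 CPM in inhibitory neurons. Rpl7l1, a nucleolar protein of large-subunit assembly, had 45 UMIs in FE4 oligodendrocytes and 13 in FE3, so its class values are imprecise.

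As a proportion of the ribosomal protein UMIs (mean over classes), Rps27 made up 2.22% in FE4 and between 1.33% and 1.47% in the other 5 libraries. Rps18 made up 1.74% in FE4 against 1.24% to 1.37%, and Rps13 2.07% against 1.47% to 1.72%. In the opposite direction Rpl35 made up 0.472% in FE4 against 0.591% to 0.728%. A gap of at least 0.2 on the log2 scale to all other libraries was found for 6 members that were highest in FE4 and 6 that were lowest in it. It was found for 2 members in TAFE4_tam and for 0 in the other 4 libraries. By this count FE4 is the library whose composition stands furthest from the rest. Of those highest in FE4, Rpl7l1, Rps19bp1 and Rps27rt are among the 7 that are not classical subunits. A proportion rises for members that were lowered less, so these values restate the unequal ratios above.

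TAFE4_oil against FE4 compares APOE4 mice with and without P301S. The labels also differ in Cre and in the oil treatment, so these cannot be told apart. The share was higher in TAFE4_oil in 9 of 9 classes, with a mean log2 ratio of 0.97 (0.96 to 0.98). It ran from 0.82 in CA1 neurons to 1.13 in astrocytes. In astrocytes 84 of 84 members were at least 1.5-fold higher, beside 26.3% of 9082 genes. In granule neurons 78 of 84 were, beside 17.7% of genes, and in CA1 neurons 68 of 84, beside 20.2%. The counts were 70 of 84 in subicular or cortical neurons (16.7% of genes), 75 of 84 in CA2 or CA3 neurons (19.1%) and 79 of 84 in inhibitory neurons (21.4%). They were 77 of 83 in oligodendrocytes (19.3%), 79 of 83 in microglia (24.1%) and 74 of 80 in oligodendrocyte precursors (20.2%). The mix of clusters within the subicular or cortical class differed between these libraries, as given below for TAFE3_oil against FE3. The mitochondrial share had a mean log2 ratio of 1.38. Among the 3 highest members were Rps4x at 1.38 and Rpsa at 1.37. The lowest were Rps27 at 0.24, Rpl7l1 at 0.30 and Rps13 at 0.49. This comparison shares FE4 with the one above, so the members' values in both depend on the same library.

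TAFE3_oil against FE3 makes the corresponding comparison in APOE3 mice. The mean log2 ratio was -0.003 (-0.014 to 0.008). The share was higher in microglia (0.44) and astrocytes (0.16). It was lower in subicular or cortical neurons (-0.24), oligodendrocyte precursors (-0.15), CA1 neurons (-0.14) and oligodendrocytes (-0.094). The subicular or cortical class pools several clusters, and their mix differed between libraries. The cluster with Rorb and Cux2 among its leading genes held 145 of 1021 nuclei in FE3 and 1848 of 3350 in TAFE3_oil. It held 107 of 1361 in FE4 and 2719 of 4481 in TAFE4_oil. The part of this mix in the ratios was not tested. The intervals of granule, CA2 or CA3 and inhibitory neurons included 0. In microglia 27 of 80 members were at least 1.5-fold higher, beside 18% of 5045 genes, from 3918 member UMIs in 150 nuclei of FE3. In the other 8 classes at most 4 members were called in either direction, such as 4 of 81 higher in astrocytes (11.2% of genes), 2 of 84 higher in granule neurons (3.85%) and 2 of 78 lower in oligodendrocyte precursors (7.49%). The mitochondrial share was lower (mean log2 ratio -0.60), while the ribosomal protein share was level. The highest members were Rps4l (0.40), Rps27l (0.34), a paralog known as a p53 target, and Rpl36al (0.33). Over the 6 classes in which it was tested, Rps27l ran from -0.30 in granule neurons to 1.05 in astrocytes. In astrocytes, its highest class, Rps27l had 21.8 CPM in FE3 and 45.3 CPM in TAFE3_oil. There it was 11.5 CPM in FE4 and 47.4 CPM in TAFE4_oil, from 174 UMIs over the 6 libraries. The lowest members were Rps28 (-0.24), Rplp1 (-0.22) and Rpl13a (-0.20).

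Tamoxifen against oil compares tau mice given the drug that lets Cre remove the floxed APOE with those given oil. The drug itself and the removal of APOE cannot be told apart. No group received tamoxifen without Cre and floxed APOE. In APOE3 mice the share was higher with tamoxifen in 9 of 9 classes, and in 7 of 9 among nuclei with 0.5% to 2% mitochondrial UMIs. The mean log2 ratio was 0.22 (0.21 to 0.23), from 0.05 in microglia to 0.35 in subicular or cortical neurons. At most 6 members were at least 1.5-fold higher in a class: CA1 neurons had 6 of 84, beside 4.2% of genes, and subicular or cortical neurons 4 of 84, beside 5.41%. The mitochondrial share moved the same way, at 0.40. In APOE4 mice the share was lower with tamoxifen in 9 of 9 classes (8 of 9 among those nuclei), with a mean of -0.45 (-0.46 to -0.44), from -0.66 in oligodendrocytes to -0.27 in CA1 neurons. In oligodendrocytes 54 of 84 members were at least 1.5-fold lower, beside 10.5% of 7834 genes, and in oligodendrocyte precursors 45 of 79, beside 10.6%. The counts were 17 of 84 in granule neurons (4.87% of genes), 21 of 84 in CA2 or CA3 neurons (5.43%), 23 of 84 in inhibitory neurons (5.28%) and 9 of 84 in subicular or cortical neurons (4.26%). In CA1 neurons 6 of 83 (6.1%) and in microglia 10 of 84 (10.1%) were lower, close to the share of all genes, and in astrocytes 20 of 80 (12.3%). The mitochondrial share was lower by more, at -1.26. The opposite direction in the 2 alleles was not tested, since each rests on 1 library per group.

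The 3 lowest members of the tamoxifen comparison in APOE4 mice were not those of FE4 against FE3. They were Rpl38 at -0.78, Rps29 at -0.76 and Rpl39 at -0.69, which encode very small subunit proteins. Rpl41, also among the smallest, was not among them. Over all used nuclei it went from 370 CPM in TAFE4_oil to 273 in TAFE4_tam, and Rpl38 from 263 to 172. In granule neurons Rps29 had 363 CPM (FE3) and 192 (FE4) without tau, 325 (TAFE3_oil) and 395 (TAFE3_tam) with tau and APOE3, and 343 (TAFE4_oil) and 209 (TAFE4_tam) with tau and APOE4. Rpl38 made up 1.41% of ribosomal protein UMIs in TAFE4_tam against 1.74% to 1.82% in the other libraries, and Rps29 2.08% against 2.53% to 2.71%. Rpl7l1 (-0.10) and Rps13 (-0.22) were among the 3 lowered least, and Rpl7l1 was so in FE4 against FE3 as well. Across the 84 members the mean ratios of FE4 against FE3 and of TAFE4_tam against TAFE4_oil, which share no library, had a Pearson r of 0.47 and a Spearman rho of 0.40. The members are not independent replicates, and they share classes, depth and the counting step. In APOE3 mice the lowest members with tamoxifen were Rps27l (-0.04), Rpl36al (-0.004) and Rpl7l1 (0.01), and the highest Rpl27a (0.40), Rpl37 (0.38) and Rpl15 (0.36).

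The alleles were also compared within tau mice. With oil the share was higher in TAFE4_oil than in TAFE3_oil in 9 of 9 classes, with a mean log2 ratio of 0.25 (0.24 to 0.26). At most 6 members were called higher in a class, in oligodendrocytes, where 6 of 81 were beside 5.38% of genes, and 1 of 84 was in subicular or cortical neurons, beside 3.93%. Rps15 (0.40) and Rpl13a (0.38) were among the 3 highest members and Rpl35 (0.05), Rpl7l1 (0.12) and Rpl27a (0.14) the lowest. With tamoxifen the share was lower in TAFE4_tam than in TAFE3_tam in 9 of 9 classes (8 of 9 among nuclei with 0.5% to 2% mitochondrial UMIs), with a mean of -0.42 (-0.43 to -0.41). In oligodendrocytes 54 of 84 members were called lower, beside 5.5% of genes. In oligodendrocyte precursors 35 of 78 were (5.8%), in granule neurons 18 of 84 (3.6%) and in microglia 2 of 82 (8.58%). Rps29 (-0.78), Rpl37 (-0.73) and Rpl38 (-0.73) were the lowest, and Rps19bp1 (0.08), Rps4l (0.02) and Rpl22 (-0.07) the highest. FE4 was thus below FE3 and TAFE4_tam below TAFE3_tam, whereas TAFE4_oil was above TAFE3_oil.

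**Figure D2:**
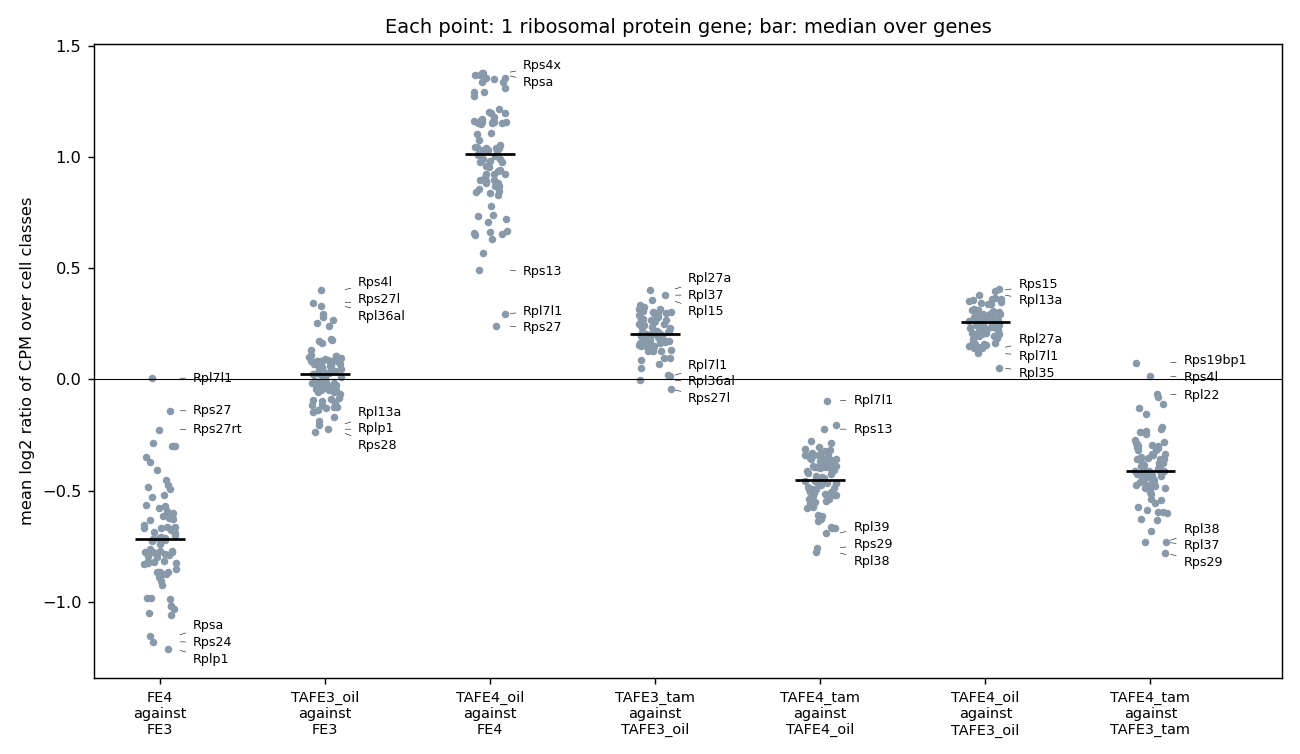
Mean log2 ratio of CPM over the cell classes (y axis) for each ribosomal protein gene tested in at least 5 classes (points), in 7 comparisons (x axis), with the median over genes as a bar and genes among the 3 highest and 3 lowest named. The bars lie near -0.72, 0.03, 1.01, 0.20, -0.45, 0.26 and -0.41 from left to right, and Rpl7l1 and Rps27 lie nearest to 0 in both comparisons that include FE4.

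Across the 63 pairs of class and comparison, the ratio of the ribosomal protein share and that of the mitochondrial share had the same sign in all classes of 6 comparisons. The exception was TAFE3_oil against FE3, where the mitochondrial share was lower in 9 of 9 classes and the ribosomal protein share had no common direction. Between FE4 and FE3 the mitochondrial ratio was weakest in astrocytes (-1.05), where the ribosomal protein ratio was -0.67. It was strongest in CA2 or CA3 neurons (-2.12), with a ribosomal protein ratio of -0.73.

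**Figure D3:**
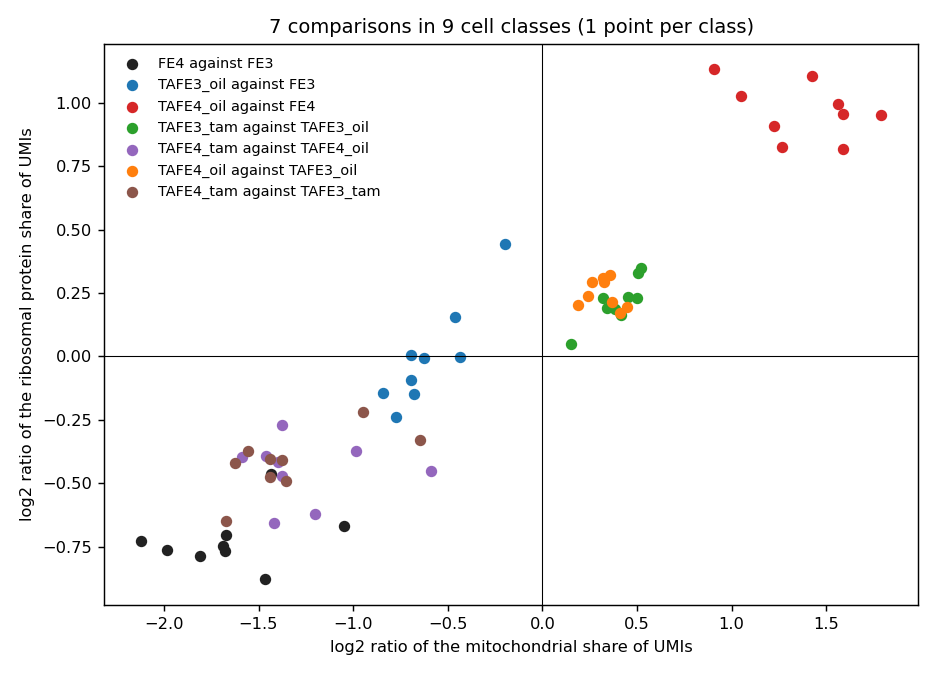
Log2 ratio of the ribosomal protein share (y axis) against the log2 ratio of the mitochondrial share of UMIs (x axis), with 1 point per cell class and 1 colour per comparison. TAFE4_oil against FE4 lies at the upper right, FE4 against FE3 and both comparisons of TAFE4_tam at the lower left, and TAFE3_oil against FE3 lies around 0 on the y axis at mitochondrial ratios from -0.84 to -0.20.

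Nuclei were therefore also grouped by their own mitochondrial share, with mitochondrial UMIs left out of the total. In each class and library with at least 20 nuclei at both ends, the ribosomal protein share was higher in nuclei with 3% to 5% mitochondrial UMIs than in those under 0.5%. The ratio ran from 1.35 in microglia of TAFE4_tam to 2.48 in CA2 or CA3 neurons of FE3. In granule neurons of FE4 it went from 0.729% to 0.814%, 0.952%, 1.09% and 1.31% over the 5 groups. FE4 and FE3 differed less between nuclei of like mitochondrial share, with mean log2 ratios from -0.17 at 0.5% to 1% (5 classes) to -0.42 at 5% to 10% (4 classes). Both groups above 5% lie outside the limit for used nuclei. Above 10% the mean was 0.44 (5 classes), but there the neurons were not alike in depth. Median UMIs were 697.5 in FE4 and 2003 in FE3 in granule neurons, 638 and 2249 in subicular or cortical neurons, and 655 and 2558 in CA1 neurons. In oligodendrocytes they were 1131 and 1075. At 1% to 2% the mean was -0.18, from -0.40 to 0.58 over classes, and -0.27 in the 8 classes other than microglia. Inhibitory neurons with 1% to 2% had a ribosomal protein share of 0.972% (FE3) and 0.801% (FE4) without tau, 1.10% (TAFE3_oil) and 1.21% (TAFE3_tam) with tau and APOE3, and 1.29% (TAFE4_oil) and 1.10% (TAFE4_tam) with tau and APOE4. FE4 stayed the lowest, and FE3 was below all 4 tau libraries. At 1% to 2% both libraries without tau were below all 4 tau libraries in all classes except oligodendrocytes, where FE3 (1.75%) was above TAFE4_tam (1.64%). In microglia FE3 (0.973%, 24 nuclei, median 2643.5 UMIs) was below FE4 (1.45%, median 719 UMIs), so these nuclei were not alike in depth. At 3% to 5% this order did not hold in all classes, since FE3 was above TAFE4_tam in granule neurons, subicular or cortical neurons, oligodendrocytes and oligodendrocyte precursors, and above TAFE3_oil in subicular or cortical neurons. TAFE3_oil against FE3 had a mean log2 ratio of 0.29 at 1% to 2%, 0.18 at 2% to 3%, 0.092 at 3% to 5%, -0.043 at 5% to 10% and 0.30 above 10% (5 classes).

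**Figure D4:**
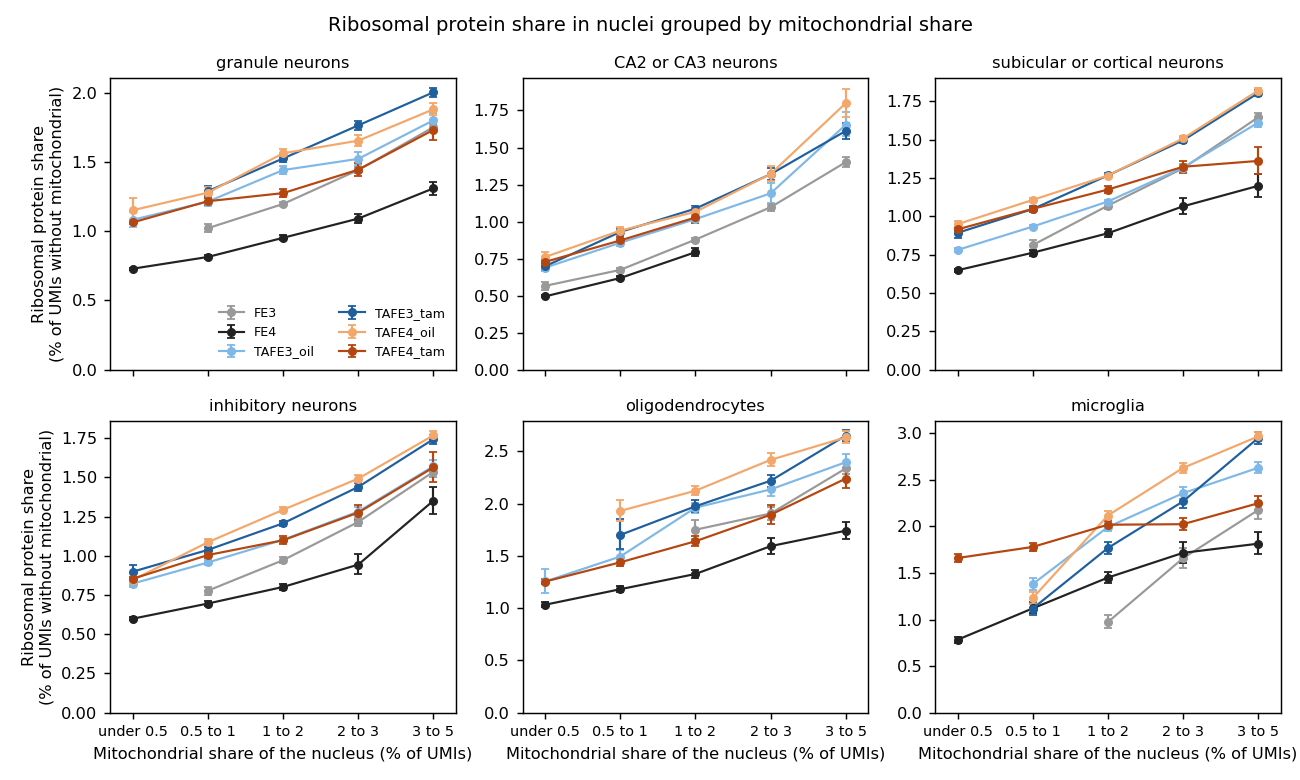
Ribosomal protein share of UMIs without mitochondrial UMIs (y axis, percent) in nuclei grouped by their mitochondrial share (x axis, percent of UMIs), in 6 classes, with 1 line per library, exact 95% intervals and only groups of at least 20 nuclei. The lines climb to the right in every panel. In granule neurons FE4 lies lowest throughout, from 0.729% to 1.31%, whereas in microglia FE3 lies lowest at 1% to 2% (24 nuclei, median 2643.5 UMIs).

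Restricted to nuclei with 0.5% to 2% mitochondrial UMIs, the mean share over classes was 1.10% (FE3) and 0.924% (FE4) without tau, 1.32% (TAFE3_oil) and 1.38% (TAFE3_tam) with tau and APOE3, and 1.47% (TAFE4_oil) and 1.28% (TAFE4_tam) with tau and APOE4. FE4 against FE3 went from -0.72 to -0.25, with 29 FE3 nuclei in microglia. In the 8 classes with at least 50 nuclei in both libraries, a choice made after seeing the data, the mean was -0.34, from -0.48 in oligodendrocytes to -0.24 in astrocytes. TAFE4_oil against FE4 went from 0.97 to 0.66, from 0.53 in CA1 neurons to 0.82 in astrocytes. TAFE3_oil against FE3 went from -0.003 to 0.25. Its 8 classes with enough nuclei had a mean of 0.16, from 0.0094 in subicular or cortical neurons to 0.47 in astrocytes. Tamoxifen against oil went from 0.22 to 0.078 in APOE3 and from -0.45 to -0.20 in APOE4 mice, and no longer had 1 direction in 9 of 9 classes. In APOE3 mice microglia were at -0.25 (-0.30 to -0.19) and astrocytes at -0.018 (-0.075 to 0.040). The TAFE3_tam microglia included 27 deep nuclei at 0.5% to 1% (median 3210 UMIs, share 1.12% without mitochondrial UMIs). At 1% to 2% they had 1.77% (110 nuclei, median 909 UMIs), against 1.99% in TAFE3_oil (median 861.5 UMIs). The part of depth in these microglial ratios was not tested. In APOE4 mice microglia were at 0.021 (-0.018 to 0.059). TAFE4_tam against TAFE3_tam went from -0.42 to -0.11, with microglia at 0.30 (0.25 to 0.35), from 137 nuclei of TAFE3_tam, and the other 8 classes from -0.35 to -0.080. In microglia 10 of 78 members were called lower in TAFE3_tam than in TAFE3_oil, beside 14.8% of genes, and 14 of 79 higher in TAFE4_tam than in TAFE3_tam, beside 30.4%, so in both the members' share was under that of all genes. In this range of nuclei granule neurons had 18 of 83 members called lower in FE4 than in FE3, beside 6.58% of genes, and oligodendrocytes 34 of 76, beside 14.2%. In CA2 or CA3 neurons the median member was at -0.28 and the median gene at 0.01, and in astrocytes at -0.25 and -0.03. Granule neurons had 63 of 83 members called higher in TAFE4_oil than in FE4, beside 15.6% of genes, and astrocytes 57 of 80, beside 22.2%. Astrocytes of TAFE3_oil had 29 of 73 called higher than in FE3, beside 19.1% of genes. In oligodendrocytes tamoxifen in APOE4 mice left 24 of 80 called lower, beside 8.58% of genes. Shares of all genes called are not given for the other classes, so their median member and median gene are given instead of counts. In this comparison these were -0.24 and 0.05 in granule, -0.16 and 0.05 in subicular or cortical and -0.09 and 0.07 in CA1 neurons. They were -0.13 and 0.12 in CA2 or CA3 neurons and -0.23 and -0.02 in inhibitory neurons. Among glia they were 0.005 and 0.09 in microglia, -0.31 and -0.02 in astrocytes and -0.30 and -0.02 in oligodendrocyte precursors.

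Other gene lists were set beside the members as the mean over classes of the list's median log2 ratio. For FE4 against FE3 the members stood at -0.73. Nuclear-encoded subunits of oxidative phosphorylation, whose mRNAs are also short and abundant, stood at -0.62. Abundant cytoplasmic mRNAs stood at -0.48 and translation initiation and elongation factors at -0.26. The mitochondrial ribosome (-0.03), ribosome biogenesis factors that act in the nucleolus (-0.01), snoRNA host genes (0.04) and long nuclear RNAs (0.03) stood near 0. Growth signalling genes stood at -0.13. In granule neurons 48 of 77 oxidative phosphorylation genes and 12 of 23 abundant cytoplasmic mRNAs were at least 1.5-fold lower, but only 2 of 43 ribosome biogenesis factors, beside the 8.17% of all genes given above.

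For TAFE4_oil against FE4 the order was alike: members 1.02, abundant cytoplasmic mRNAs 1.02, oxidative phosphorylation 0.96, translation factors 0.70, mitochondrial ribosome 0.39, ribosome biogenesis 0.18, growth signalling 0.17, snoRNA hosts -0.13 and long nuclear RNAs -0.19. For TAFE4_tam against TAFE4_oil the members stood at -0.45, abundant cytoplasmic mRNAs at -0.50, oxidative phosphorylation at -0.48 and ribosome biogenesis at -0.07. For TAFE3_tam against TAFE3_oil they differed: members stood at 0.21 and snoRNA hosts at 0.14, whereas oxidative phosphorylation stood at 0.04 and abundant cytoplasmic mRNAs at -0.05. The part of cytoplasm carried with the nuclei in these differences was not tested.

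**Figure D5:**
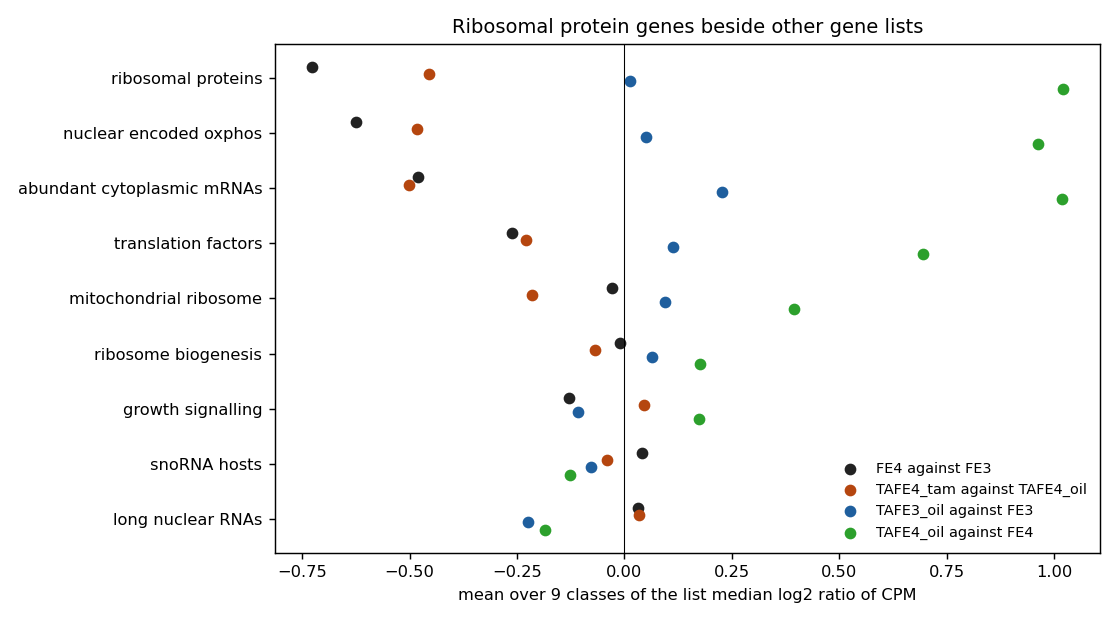
Mean over 9 classes of each list's median log2 ratio of CPM (x axis) for the ribosomal protein genes and 8 other lists (y axis), in 4 comparisons (colours). Ribosomal proteins, oxidative phosphorylation and abundant cytoplasmic mRNAs lie between -0.73 and -0.45 in FE4 against FE3 and TAFE4_tam against TAFE4_oil and near 1 in TAFE4_oil against FE4, while ribosome biogenesis, snoRNA hosts and long nuclear RNAs lie within 0.25 of 0.

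The members share a compact gene structure. In the GENCODE annotation of GRCm38 their median span was 3266 bp, against 17771.5 bp for coding genes, and their median mRNA 878 bp (83 members with a coding transcript) against 2590 bp. They are spread over 19 chromosomes, and 80 of 84 span under 10 kb. Coding genes outside the list that span under 5 kb had a mean of class medians of -0.15 in FE4 against FE3, the same as those of 5 to 10 kb and near the -0.10 of genes over 100 kb. In TAFE4_oil against FE4 genes under 5 kb stood at 0.37 and genes over 100 kb at 0.06, and in TAFE4_tam against TAFE4_oil at -0.22 and 0.07. Short genes in general therefore moved less than the members. Among the members themselves the ratio of FE4 against FE3 had a Pearson r of -0.01 with log2 mRNA length over 83 genes, and that of TAFE4_tam against TAFE4_oil had 0.30.

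The first bases of the transcripts were read from the RefSeq promoter table (GRCm38.p6), in which 63 of the 84 members were found. A C at the annotated start followed by at least 4 C or T, the core of a TOP motif, was present in 14 of the 63 (22.2%), against 3.01% of all 27025 genes of the table. Allowing the run to begin within 5 bases of the annotated start, it was present in 47.6% of members and 21.2% of all genes. The search was on the gene's strand, and a start annotated a few bases off is missed by it. The sequences below, 15 bases before and 15 after the start, are shown for members at both ends of the comparisons and for Rps21, one of the 5 highest members by level. Capitals mark the pyrimidine run from the start, where there is one.
Rps27: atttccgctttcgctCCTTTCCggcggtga
Rpl38: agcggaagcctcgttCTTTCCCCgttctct
Rps21: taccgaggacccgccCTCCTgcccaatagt
Rpsa: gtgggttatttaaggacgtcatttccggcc
Rpl7l1: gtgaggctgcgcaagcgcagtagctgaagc
These lie at chr3:90213634-90213663 on the minus strand, chr11:114668565-114668594 (plus), chr2:180257364-180257393 (plus), chr9:120127751-120127780 (plus) and chr17:46782642-46782671 (minus). Rps27, which was lowered least among core members in FE4, and Rpl38, which was lowered most in TAFE4_tam, both hold the run, of 7 and 8 bases. The 14 members with the run had a median of -0.66 in FE4 against FE3, from -1.05 to -0.14, and the 49 without it -0.72, from -1.18 to 0.01. In TAFE4_oil against FE4 the medians were 0.91 and 1.01. The ranges overlap almost entirely. The split misses runs at starts annotated a few bases off: 14 members hold one at the start and 30 within 5 bases. It therefore cannot decide whether the motif goes with how the members moved.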

How the data were processed

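Per the file headers, the deposited values are UMI counts per gene and nucleus written by Cell Ranger 3.1.0, and the submitters' processing notes name mm10 and Seurat. No source used here says whether intronic reads were counted, and the design text names 3′ sequencing together with 5′ kits. Nuclei with at least 500 UMIs, 300 genes and at most 5% mitochondrial UMIs were used, and 8.99% (FE4) to 30.2% (FE3) of barcodes per library were over the last limit. Scrublet marked 381 to 1591 nuclei per library as doublets, and these were left out. Any 2 libraries shared 65 to 83 barcode sequences. Depth per library ran from 39050503 to 49083723 UMIs over all barcodes.

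Clustering (scanpy 1.11.5, leidenalg 0.10.2, 2000 variable genes, 30 components, resolution 1) used no member, mitochondrial, sex-linked or APOE gene and gave 31 clusters, named from marker lists. UMIs were summed per class and library. Ratios of shares are on the log2 scale with conditional binomial intervals, means weight the 9 classes equally, and single genes are called at 1.5-fold where both libraries together hold at least 50 UMIs, with counts under 3 set to 3. The steps were checked on simulated data. Named genes are the 5 highest and 5 lowest members, the 3 highest and 3 lowest per comparison among those tested in at least 5 classes, the 5 most uneven over classes with at least 500 UMIs, and a list by role. Some genes that this rule names, and one short gene list, are not reported here. Rps13, Rps18, Rpl35 and Rpl38 in the composition of ribosomal protein UMIs were chosen after their values were seen. The members and gene lists were chosen with earlier results of these data known. The 7 comparisons share libraries and are not independent. Alternatives changed the mitochondrial limit, depth, doublets, resolution, scaling (TMM of edgeR 4.0.16), member list and the minimum per gene, and 2 that leave thin classes out of means within mitochondrial groups were chosen after seeing the data.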

Additional observations from a re-analysis of the deposited data

Results flagged for a closer look

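In 4 classes the log2 ratio of the ribosomal protein share between tau and non-tau libraries had opposite signs in the 2 APOE alleles. In subicular or cortical neurons it was 0.83 in APOE4 and -0.24 in APOE3, in oligodendrocytes 0.91 and -0.094, in CA1 neurons 0.82 and -0.14, and in oligodendrocyte precursors 1.02 and -0.15. The mix of clusters within the subicular or cortical class differed between tau and non-tau libraries, as given above. Tamoxifen against oil had opposite signs in all 9 classes. The values were -0.41 in APOE4 and 0.23 in APOE3 in granule neurons, -0.39 and 0.35 in subicular or cortical neurons, -0.66 and 0.23 in oligodendrocytes, and -0.27 and 0.33 in CA1 neurons. They were -0.37 and 0.048 in microglia, -0.40 and 0.19 in CA2 or CA3 neurons, -0.47 and 0.23 in inhibitory neurons, -0.45 and 0.19 in astrocytes, and -0.62 and 0.16 in oligodendrocyte precursors. The means over classes were -0.45 and 0.22. In nuclei with 0.5% to 2% mitochondrial UMIs the APOE3 ratios of tau in those 4 classes were above 0, at 0.0094, 0.056, 0.039 and 0.10, so the signs were no longer opposite. In the same nuclei tamoxifen against oil was below 0 in astrocytes of both alleles (-0.26 in APOE4 and -0.018 in APOE3), and microglia had changed places (0.021 in APOE4 and -0.25 in APOE3). Of the TAFE3_tam microglia, 27 nuclei were deep, as given above. These differences between the alleles were not tested, since each value rests on 1 library per group. The mitochondrial share had opposite signs in the same way, with means of 1.38 in APOE4 and -0.60 in APOE3 for tau, and -1.26 and 0.40 for tamoxifen.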

How the results depend on the processing

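The mean ratios are given in the order FE4 against FE3, TAFE3_oil against FE3, TAFE4_oil against FE4, TAFE3_tam against TAFE3_oil, TAFE4_tam against TAFE4_oil, TAFE4_oil against TAFE3_oil and TAFE4_tam against TAFE3_tam. As reported they are -0.72, -0.003, 0.97, 0.22, -0.45, 0.25 and -0.42. The mitochondrial limit moved them most. With at most 1% mitochondrial UMIs they were -0.27, 0.25, 0.66, 0.039, -0.097, 0.14 and 0.0028, so the last lost its direction, and as few as 4 FE3 oligodendrocytes were left. From 0.5% to 2% they were -0.25, 0.25, 0.66, 0.078, -0.20, 0.16 and -0.11, and 11 of the 63 class ratios had the opposite sign. With only the classes that held at least 50 such nuclei in both libraries, chosen after seeing the data, the first 2 were -0.34 and 0.16, and the other 5, which keep all 9 classes, as before. With no limit the first 3 were -0.93, -0.089 and 1.07 and the last 3 -0.54, 0.23 and -0.52. With TMM factors they were -0.58, 0.026, 0.77, 0.20, -0.41, 0.16 and -0.45. Smaller moves came with at least 1000 UMIs per nucleus (-0.78, -0.033, 1.03, 0.29 for TAFE4_oil against TAFE3_oil and -0.39 for TAFE4_tam against TAFE3_tam). With doublets kept 4 moved (-0.71, 0.94, 0.24 for TAFE3_tam against TAFE3_oil and -0.43 for TAFE4_tam against TAFE3_tam). At resolution 0.5 TAFE4_oil against FE4 was 0.99, TAFE4_oil against TAFE3_oil 0.26 and TAFE4_tam against TAFE3_tam -0.41. Without mitochondrial UMIs in the total 5 moved (-0.75, -0.015, 0.99, -0.47 and -0.44). The cause of these moves was not tested. Leaving out the 7 paralogs and other proteins, or adding the pseudogenes, moved none of the 7. No library could be left out, since each group has 1. No paired analysis was possible because the labels give 1 library per group and no replicate numbers to pair. Depth limits single members most in microglia of FE3 (150 nuclei).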
